A study of Mus musculus with 6 samples.

Results

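Connexins are membrane proteins that assemble into hexameric channels, and channels of apposed membranes dock to form gap junctions. In peripheral nerve, myelinating Schwann cells (SCs) use such channels to connect the layers of their own myelin sheath at paranodes and Schmidt-Lanterman incisures, where Connexin-32 is the best known, and in humans mutations of its gene cause an X-linked neuropathy. Fibroblasts, perineurial cells and the vessels of the nerve use other connexins. Here, the transcript levels of 9 connexin genes in P9 sciatic nerve are described. The members were taken from a named set (*Gjb1*, *Gjb2*, *Gjb6*, *Gjc1*, *Gjc3*, *Gja1*, *Gja4*, *Gja5* and *Gjd3*) by their MGI symbols, and each of the 9 symbols occurs once among the 46603 genes of the deposited table. The table also lists 11 other connexin genes.

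RNA-Seq was carried out on whole sciatic nerves of 3 *Ep400ΔPNS* mice and 3 control mice at postnatal day 9 to find out how gene expression changes when Ep400, the central subunit of a chromatin remodeling complex, is lost from SCs. *Ep400ΔPNS* mice carried conditional *Ep400* alleles and a *Dhh::Cre* transgene, whose promoter is active in the SC lineage, and control mice carried conditional *Ep400* without the transgene. The labels give a mixed 129SvJ/C57Bl/6J background for both genotypes, whereas the methods give C3H and C57Bl/6J. RNA of a whole nerve holds transcripts of all its cell types, so that fewer cells of a type and less RNA per cell cannot be told apart.

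The table holds 1 level per gene, the mean over all 6 libraries of reads divided by a size factor that corrects for depth (mean normalized count). Both genotypes are pooled in it, and its other numeric columns are the authors' own comparison of the genotypes, which is not used here. No difference between *Ep400ΔPNS* and control nerves is therefore reported, and a mean has no replicate error. The means sum to 25.6 M, which approximates the reads counted in an average library. Positions are on mm10. The size factors of the 6 libraries, recovered from the means of genes with a single read, lay between 0.908 and 1.20, a 1.32-fold range of depth.

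*Gjc3* and *Gjb1*, which encode Connexin-29 and Connexin-32 of SCs, had the highest levels of the 20 connexin genes, both as means and per kb of gene length. *Gjc3* (ENSMUSG00000056966) had a mean normalized count of 17642 in the authors' table and lay at place 129 of the 30644 genes with a mean above 0. It alone made up 79.3% of the summed means of the 9 genes. *Gjb1* (ENSMUSG00000047797) followed with a mean of 1893 at place 2653. The 7 other members together made up the remaining part, with *Gja1* at 5.73%, *Gjc1* at 3.65% and *Gjb2* at 1.25% of that sum.

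Promoter windows of these genes are shown because they had the highest levels of the 9. The windows run from 250 bases before an annotated start site to 50 bases from it, come from RefSeq on build GRCm38.p6 (mm10) and are written 5′ to 3′ on the strand of the gene. RefSeq lists 4 start sites for *Gjb1* on the plus strand of chromosome X, and the one shown is the most downstream (chrX:101383482-101383781). The single *Gjc3* window lies on the minus strand of chromosome 5 (chr5:137963049-137963348). Capitals mark ACAAAG and ACAATG, motifs bound by Sox factors, and GTGGGNG, the core of motifs bound by Egr factors such as Krox20, each searched on both strands.
Gjb1: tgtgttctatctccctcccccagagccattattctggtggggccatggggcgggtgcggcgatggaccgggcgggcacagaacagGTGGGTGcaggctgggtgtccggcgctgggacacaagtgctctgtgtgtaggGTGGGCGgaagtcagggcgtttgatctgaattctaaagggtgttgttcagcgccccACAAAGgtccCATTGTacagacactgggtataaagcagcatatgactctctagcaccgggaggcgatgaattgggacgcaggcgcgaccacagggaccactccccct
Gjc3: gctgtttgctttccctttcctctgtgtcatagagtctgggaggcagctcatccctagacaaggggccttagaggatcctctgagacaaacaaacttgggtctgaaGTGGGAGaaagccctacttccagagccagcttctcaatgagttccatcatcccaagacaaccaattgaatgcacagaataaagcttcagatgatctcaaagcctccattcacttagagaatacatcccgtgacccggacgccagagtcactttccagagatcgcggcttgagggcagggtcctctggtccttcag

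The *Gjb1* window held all 3 motifs. ACAAAG began 57 bases before the start site, ACAATG lay on the opposite strand 47 bases before it, and 2 copies of GTGGGNG began 165 and 113 bases before it. In the 3 upstream *Gjb1* windows, only the first held a motif, 1 copy of ACAAAG 176 bases before its start site. The *Gjc3* window held 1 copy of GTGGGNG, 145 bases before the start site, and neither Sox motif. Among all 32851 RefSeq windows of this length, 18.7% held ACAAAG, 12.6% held ACAATG, 31.6% held GTGGGNG and 0.63% held all 3. These shares are per window, whereas 4 windows were searched for *Gjb1*. Of the 9 members, 7 matched a RefSeq window, and *Gjc1* and *Gjd3* did not. In the other windows, *Gja5* held 1 copy of ACAAAG and 3 of GTGGGNG, *Gjb6* held 1 copy of GTGGGNG, and *Gja1*, *Gja4* and *Gjb2* held none of the motifs. These are matches of letters, and the table has no measure of binding.

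To compare levels between genes, each mean was divided by the length of the merged exons of the gene in GENCODE M21. On this scale *Gjc3* was at 4050 normalized counts per kb and *Gjb1* at 1109, a 3.65-fold ratio. *Gjc3* thereby ranked at place 155 and *Gjb1* at place 764 of the 30407 genes with a mean above 0 and a gene model. Divided by coding length instead, the ratio of *Gjc3* to *Gjb1* was 9.81. *Gjc3* lies on chromosome 5 (137953461 to 137963098) with 4356 bases of merged exons, and *Gjb1* lies on chromosome X (101376378 to 101385629) with 1707.

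**Figure D1:**
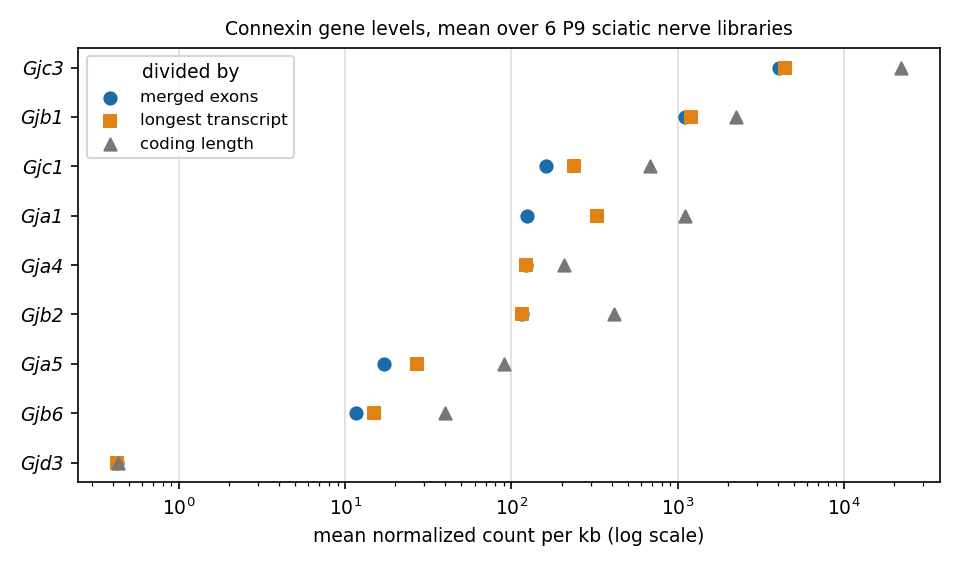
Mean normalized count per kb of the 9 connexin genes on a log axis, over the 6 libraries of both genotypes together, divided by merged exons (circles), by the longest transcript (squares) or by coding length (triangles). *Gjc3* and *Gjb1* lead on each scale and *Gjd3* is last, at 0.428 per kb of merged exons.

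Transcripts of SCs were abundant in these nerves. All 12 SC markers had a mean of at least 10, which is taken as detected here, and their levels had a median of 4512 normalized counts per kb. Among the highest were the genes of the compact myelin proteins *Pmp22* at 123307 and *Mbp* at 56358 per kb, and *Prx*, which encodes periaxin, at 15196. The level of *Prx* exceeded that of *Gjc3* 3.75-fold.

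Of the 7 other members, *Gja1* and *Gjc1* had the highest means. *Gja1*, which encodes Connexin-43 of fibroblasts and astrocytes, had a mean normalized count of 1274, and *Gjc1*, which encodes Connexin-45 of smooth muscle, had one of 811. Per kb of merged exons, *Gjc1* was at 162 and *Gja1* at 124, but per kb of the longest transcript *Gja1* was at 328 and *Gjc1* at 238. The order of these genes therefore depends on the gene model, since the merged exons of *Gja1* cover 10257 bases and its longest transcript 3889. With either length both stayed below *Gjb1*. *Gja1* (ENSMUSG00000050953) lies on the plus strand of chromosome 10 (56377330 to 56402513) and *Gjc1* (ENSMUSG00000034520) on the minus strand of chromosome 11 (102799579 to 102819700). Markers of fibroblasts were detected for 6 of 6 genes, with *Col1a1* at 99007 and *Dcn* at 8191 normalized counts per kb. Of smooth muscle and pericyte markers 9 of 9 were detected, with *Rgs5* at 1571 and *Acta2* at 971 per kb.

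*Gja4* and *Gja5* encode Connexin-37 and Connexin-40, which couple endothelial cells of arteries. *Gja4* had a mean of 205 and *Gja5* a mean of 99.0 normalized counts. Per kb these were 122 and 17.2, a 7.07-fold ratio, which was 2.29 per kb of coding length. *Gja4* (ENSMUSG00000050234) lies on the minus strand of chromosome 4 (127311421 to 127314039) and *Gja5* (ENSMUSG00000057123) on the plus strand of chromosome 3 (96904693 to 97077416). *Gja4* was near the lower end of the endothelial markers. All 8 of these were detected, at 113 to 1309 per kb with a median of 185. The endothelial adhesion gene *Pecam1* was 2.88-fold above *Gja4*. All 5 arterial markers were detected at 17.3 to 201 per kb, and *Gja5* lay just below the lowest of them, the kinase gene *Bmx*, which is named here after its values were seen. *Gja5* shares 165 exon bases with *Gpr89* on the opposite strand, whose mean was 628. The libraries were stranded, but no source says if HTSeq made use of it, which leaves the *Gja5* values uncertain.

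*Gjb2* and *Gjb6* encode Connexin-26 and Connexin-30, which are known from the epithelia of the inner ear and skin and, for Connexin-30, from astrocytes. *Gjb2* (ENSMUSG00000046352) lies on the minus strand of chromosome 14 from 57098600 to 57104702, and *Gjb6* (ENSMUSG00000040055) on the same strand from 57123303 to 57133611, 18.6 kb away. *Gjb2* had a mean of 279 normalized counts or 116 per kb, and *Gjb6* a mean of 31.3 or 11.7 per kb, a 9.90-fold ratio. *Gjb2* was below *Gja4* by a ratio of 1.05 per kb of merged exons, and this order turned round with coding length, where *Gjb2* was at 411 and *Gja4* at 206 per kb. Of the skin markers, *Krt5*, *Krt1* and *Ivl* were at 3.44, 1.31 and 0.955 per kb and *Krt10* at 91.6. Of the astrocyte and oligodendrocyte markers, *Mobp* was at 14.3 per kb, *Aqp4* at 9.48, *Gfap* at 2.88 and *Mog* at 0.244. All 5 perineurial markers were detected, with *Slc2a1* at 909 and *Cldn1* at 603 per kb.

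*Gjd3* (ENSMUSG00000047197, minus strand of chromosome 11 from 98982180 to 98983016), a connexin gene of the heart's conduction system in mice, had a mean of 0.358. This value is 2 reads in 1 of the 6 libraries and 0 reads in the 5 others, where a count of 0 allows up to 3 reads as a one-sided 95% limit. At this depth the transcript was thus barely detectable.

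Neither the *Gjc3* nor the *Gjb1* mean can be traced back to single libraries, but low means can. A mean of 6 scaled whole counts that is printed with 15 significant digits has in general 1 set of counts behind it when it is small, and all 1454 genes with means from 20 to 40 gave exactly 1 set. Among the members this worked for *Gjb6*, *Gja5* and *Gjd3*, and means above 100 were not split. The mean of *Gja5*, 99.0, lies outside the range of 20 to 40 and near this upper limit. At that level, 4 of 5 simulated sets had exactly 1 solution. The libraries carry no label of genotype. They are named A to F by falling size factor, are not assigned to *Ep400ΔPNS* or control nerves and are not compared as groups. Values are reads divided by the size factor, and 95% intervals are exact Poisson intervals, which are two-sided and cover counting error only.

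*Gjb6* reads varied strongly between the libraries. There were 4, 7, 15, 55, 52 and 45 reads in libraries A to F, or 3.33, 6.41, 15.5, 57.0, 55.9 and 49.6 after scaling. Library A, the lowest, had an interval of 0.907 to 8.53, and library D, the highest, one of 43.0 to 74.3, a 17.1-fold ratio of the values. The coefficient of variation over the 6 libraries was 81.5%, against a median of 42.5% over the 1454 genes of similar mean, and 92.1% of these genes were below it. The 3 libraries with the most scaled *Gjb6* reads held 86.5% of their sum, a share that was smaller in 95.7% of the 1454 genes. The mean of *Gjb6* thus does not describe a typical library.

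*Gja5* had 100, 47, 38, 129, 147 and 124 reads in libraries A to F. Scaled, these were 83.3, 43.0, 39.4, 134, 158 and 137, with a coefficient of variation of 51.6%. Library E, the highest, had an interval of 133 to 186 and library C, the lowest, one of 27.8 to 54.0, so that they differed beyond counting error by 4.01-fold. *Bmx*, the only arterial marker with a mean low enough to be split, had 80.8, 42.1, 55.9, 59.1, 30.1 and 52.9 scaled reads in the same libraries. *Bmx* was lowest in library E, where *Gja5* was highest. The smooth muscle marker *Cnn1*, also named after its values were seen, had 91.6, 24.7, 36.2, 32.1, 81.6 and 74.9 scaled reads. *Cnn1* was second highest in library E and was low in libraries B and C, where *Gja5* was lowest. However, *Cnn1* was highest in library A, where *Gja5* was at 83.3, and was also low in library D, where *Gja5* was at 134. The part of vascular RNA in the *Gja5* values was not tested.

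The skin markers *Krt5*, *Krt1* and *Ivl* had few reads in each library, whereas *Krt10*, with a mean of 194, was not split. *Krt5* had 9, 5, 0, 11, 7 and 13 reads in libraries A to F, and *Ivl* had all of its 10 reads in library F. *Krt1* had 12, 5, 1, 8, 6 and 4 reads. The part of skin RNA in the *Gjb6* values was not tested.

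**Figure D2:**
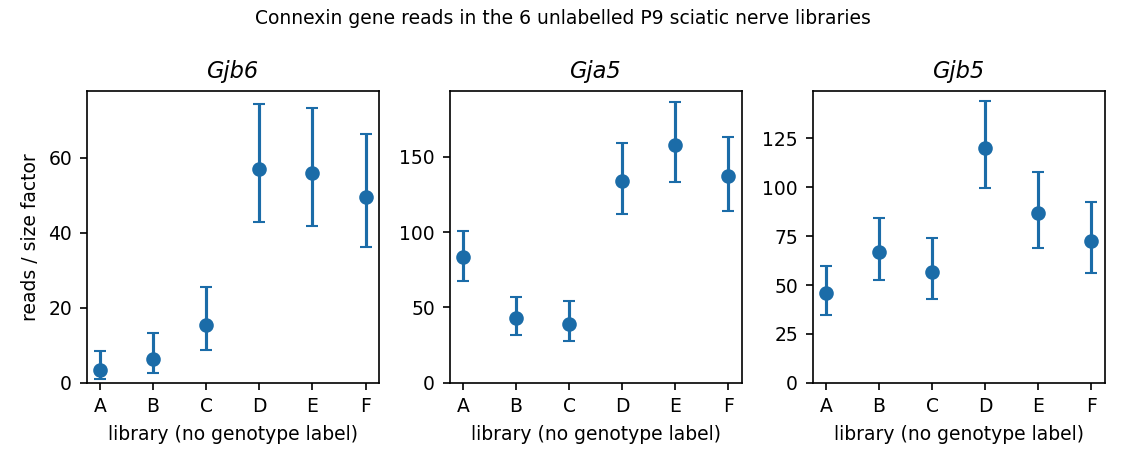
Reads divided by size factor (linear axis from 0) in the 6 unlabelled libraries A to F for *Gjb6*, *Gja5* and the connexin gene *Gjb5*, with exact 95% Poisson intervals as bars. *Gjb6* ranged from 3.33 to 57.0 and was highest in library D, and *Gja5* was highest in library E at 158.

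The other connexin genes contributed little. The 9 members held 99.3% of the summed means of the 20 connexin genes. Of the 11 others, 2 had a mean of at least 10, 7 lay between 0 and 10, and *Gja10* and *Gje1* were listed at 0. *Gjb5*, which passed that limit, had a mean of 74.9, below that of *Gja5* at 99.0. Per kb of merged exons, *Gjb5* was at 43.5 and exceeded *Gja5* at 17.2, *Gjb6* at 11.7 and *Gjd3* at 0.428. In libraries A to F, *Gjb5* had 45.8, 66.9, 57.0, 120, 87.0 and 72.7 scaled reads, with a coefficient of variation of 35.0%.

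*Gjb2* is flanked by another connexin gene, *Gja3*, at a distance of 40.5 kb. *Gja3*, named here for its position, was at 1.7 per kb.

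Pannexin genes encode channel proteins that resemble connexins but do not usually form gap junctions. *Panx1* had a mean of 182 normalized counts or 30.3 per kb, below *Gjb2* and above *Gja5* per kb. The other 2 pannexin genes had means below 10. Genes of gap junction partners were detected for 15 of 15 members, with a median of 480 normalized counts per kb. Among them, *Nedd4*, which encodes a ubiquitin ligase, was at 2577 per kb, *Ctnnb1*, the beta-catenin gene, at 2569 and *Cav1*, a caveolin gene, at 2367. The 9 connexin genes had a median of 122 per kb. All 9 had a mean above 0 and a gene model, and the median of the 30407 such genes was 14.8 per kb. *Gjb6* at 11.7 and *Gjd3* at 0.428 per kb lay below that median. Over genes with a gene model and a mean of at least 10, which 8 of the 9 reached, the median was 90.8 per kb.

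**Figure D3:**
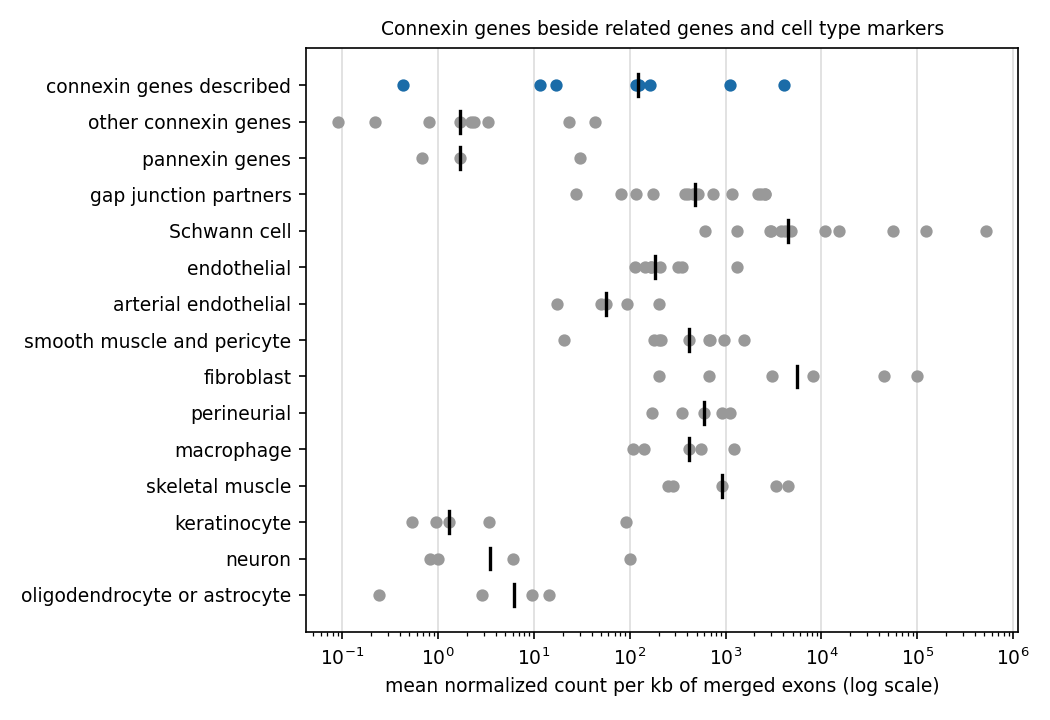
Mean normalized count per kb of merged exons (log axis) of the 9 connexin genes (blue) and of related genes and cell type markers (gray), over the 6 libraries together, 1 point per gene with a black line at the median of each list. *Gja10* and *Gje1* are at 0 and have no point, and the SC markers have the second highest median at 4512 per kb after the fibroblast markers at 5620.

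The members were related to each other in sequence. Over the 36 pairs of coding sequences, the share of identical bases in aligned positions lay between 55.8% and 75.7% with a median of 64.2%. *Gjb2* and *Gjb6* were the closest pair at 75.7%, followed by *Gjb1* with *Gjb2* at 69.4%. *Gjc3* was closest to *Gjc1* at 67.2%, and *Gja4* to *Gja5* at 67.3%. The authors counted unique mappings only.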

How the data were processed

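Whole sciatic nerves of 3 *Ep400ΔPNS* and 3 control mice were profiled at P9. Per the methods and the submitters' processing notes, stranded mRNA libraries were aligned to mm10 with STAR 2.5.1, unique mappings to Ensembl genes were counted with HTSeq and DESeq2 was run. The deposited signal is the authors' mean, headed as raw, over 6 libraries of counts divided by size factors. The header names Ensembl release 82 and the methods a later one. The other numeric columns hold the authors' comparison (fold changes, standard errors, Wald statistics and p-values) and were not used. A planned count test per library could not be run, since the table has 1 pooled mean per gene.

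Gene models came from GENCODE M21, to which 46091 of 46603 IDs matched, and a mean of at least 10 counted as detected. Size factors were read from the 6 smallest distinct means and refined by least squares on 4743 genes with means up to 5, a step chosen after seeing the data in place of a planned average over genes with 1 read, whose values proved identical. Means up to 100 were then split by a complete search for whole counts. Tested on simulated data, 50 of 50 sets at a mean of 30 had 1 solution, which was right, as had 9 of 10 at 70 and 4 of 5 at 99. The simulated means were built with the same values of 1 read that the search used, so that errors in those values were not tested. Simulated sets with a mean above 100 were left out. Coding sequences were aligned globally with Biopython 1.88 (match 2, mismatch -1, gap -5 and -0.5), in place of the planned protein comparison. Python 3.11.15, numpy 2.4.6 and scipy 1.17.1 were used. The named genes are the 9 members, any other connexin or pannexin gene that was detected, and up to 4 genes of each list by level per kb, and the text says where others are named. Some genes under this rule are not reported here. Members, lists and motifs were chosen with earlier results of these data known.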

Additional observations from a re-analysis of the deposited data

How the results depend on the processing

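The order of the members per kb of merged exons was kept for 35 of 36 pairs with the longest transcript, and for 34 of 36 pairs with coding length and with no length. *Gja1* and *Gjc1* changed places in all 3 settings, and *Gja4* and *Gjb2* with coding length and no length. Of the 9 genes, 8 lay above the median mean of genes above 0, and 4 above that of genes with a mean of at least 10. The mean of *Gjb6* lay between 26.1 and 36.9 and that of *Gja5* between 87.3 and 111 when each of the 6 unlabelled libraries was left out in turn. Of 27 listed genes split into reads, 19 had the same split when no library was allowed more than 3 times the mean. This narrower search can only keep or drop a split, so that it does not test if a split is right. With values of 1 read that were not refined, a setting added after seeing the data, 26 had the same split. *Gjd3* had no split in the narrower search, since its reads lie in 1 library. With a mean of at least 1 in place of 10, 91 instead of 79 of the 97 genes in the other lists were detected. No paired analysis was possible because the table has no columns of labelled libraries. For the same reason the spread of *Gjc3*, *Gjb1*, *Gja1*, *Gjc1*, *Gjb2* and *Gja4* between mice is unknown here.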

Other observations

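Sorted by value, the scaled *Gjb6* reads in the unlabelled libraries were 3.33 (A), 6.41 (B), 15.5 (C), 49.6 (F), 55.9 (E) and 57.0 (D). The widest step between neighbouring values, from library C to library F, was 3.20-fold. A widest step is read from the values themselves and exists for any gene, so that it does not define groups of libraries. *Gja5* had its widest step, of 1.94-fold, between library B at 43.0 and library A at 83.3. *Gjb5* had no step above 1.38-fold. The labels do not say which mice the libraries came from. Libraries A and B were also the deepest by size factor (1.20 and 1.09), whereas libraries C and D had similar size factors (0.966 and 0.964). The part of depth or genotype in these values was not tested.

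The oligodendrocyte gene *Mobp* had 37.5, 263, 216, 18.7, 26.9 and 24.2 scaled reads in libraries A to F. *Mobp* was highest in libraries B and C, and library A at 37.5 was closer to library E at 26.9 than to library B or C. The water channel gene *Aqp4* had 1.67, 8.24, 50.7, 25.9, 204 and 63.9 scaled reads. Libraries A and B were lowest as for *Gjb6*, but library C was above library D, unlike for *Gjb6*. *Gfap*, of the same marker list, had 12.5, 12.8, 17.6, 6.22, 16.1 and 7.71 scaled reads and was lowest in libraries D and F. The *Aqp4* reads rest on the refined values of 1 read and the full search, and no split of this gene was found with the unrefined values or in the narrower search. The coefficients of variation were 114% for *Mobp* and 127% for *Aqp4*, and the part of RNA from such cells in the *Gjb6* values was not tested.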
